A study of Mus musculus with 61 samples.

Results

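The 9 genes described here encode enzymes of the mitochondrial citric acid cycle: Cs, Idh3a, Idh3b, Idh3g, Ogdh, Dlst, Suclg1, Fh1 and Mdh2. They were chosen by name and are 9 of the 15149 genes of the expression table used here. RNA was sequenced from mouse retinal cells sorted as positive for Thy1.2 and negative for GFAP and for Cd45.2, Cd34, Cd11c and Cd11b. The submitters call them retinal ganglion cells, which are the output neurons of the eye. DBA/2J is an inbred strain that develops glaucoma with age and carries a mutation in Gpnmb. D2-Gpnmb+ mice share that background but have working Gpnmb, and served as controls. Mice on water gave 10 libraries per strain at 4 months. At 9 months DBA/2J gave 25 libraries and the D2-Gpnmb+ controls gave 9. A further 7 libraries came from DBA/2J mice of 9 months given nicotinamide, a precursor of NAD, at 500 mg/kg/d. In all 5 groups the retinas came from eyes in which staining showed no axon degeneration, and the design text describes the controls as matched for age and sex.

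The 61 libraries held 5133114 to 19501444 recovered reads, with a median of 9730486. Their columns fall into 3 stretches, called blocks here, of 10, 18 and 33 libraries, whose meaning the labels do not state. All libraries of 4 months and all with nicotinamide lie in block 3, together with 3 of the 25 DBA/2J and 3 of the 9 D2-Gpnmb+ libraries of 9 months on water, so that age and treatment largely follow block. Gpnmb itself ran from 34.7 to 129.6 in D2-Gpnmb+ and from 3.69 to 14.5 in DBA/2J at 4 months, without overlap, but from 11.9 to 83.5 and from 8.39 to 78.3 at 9 months, where D2-Gpnmb+ library 1 was the lowest of its group. One D2-Gpnmb+ library of 9 months, library 8, had Xist at 7.93 where the other 60 had at least 4077. The X-linked Idh3g was at 64.5 in that library, within its group's range. Summed over the 15 ganglion cell markers in the table, the level ran from 143.8 to 528.8 with a median of 306.3, against a median of 8651 for 15 rod markers, 7624 for 12 bipolar cell markers and 2717 for 12 markers of Müller glia and astrocytes. The libraries therefore held RNA of several retinal cell types. In such bulk libraries fewer cells of a type and less RNA per cell cannot be told apart.

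The citric acid cycle oxidises acetyl groups to carbon dioxide and passes the electrons to NAD and FAD, which feed the respiratory chain. Citrate synthase (Cs) starts it, and the NAD-dependent isocitrate dehydrogenase, built from a catalytic alpha subunit (Idh3a) with beta (Idh3b) and gamma (Idh3g) subunits, is one of its regulated steps. The 2-oxoglutarate dehydrogenase complex (its E1 subunit Ogdh and E2 subunit Dlst), succinyl-CoA ligase (alpha subunit Suclg1), fumarase (Fh1) and malate dehydrogenase (Mdh2) are the further steps described here. Neurons of the retina have a high energy demand, and the IDH3 and 2-oxoglutarate dehydrogenase steps, like malate dehydrogenase, use NAD as their electron acceptor.

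The 9 genes lie on 9 chromosomes in the GRCm38 annotation, from chromosome 1 (Fh1) to the X chromosome (Idh3g). Only Idh3b shared exon bases with another gene, 5 bases or 0.146% of its exon length with Nop56 on the opposite strand. Cs has a close copy, Csl, which is not among the genes of the table, and how reads matching both were counted is not given in the sources used here. Of the 9 members, 3 start within 1 kb of a gene that runs the other way: Idh3g lies 131 bases from the start of Ssr4, Dlst 74 bases from that of Prox2 and Mdh2 95 bases from that of Styxl1. RefSeq promoter windows of GRCm38.p6, 250 bases before to 50 after each start, were matched for 8 of the 9 members (not Idh3a). The windows of Idh3g and Dlst are shown for their shared start regions, with the 130 and 73 bases between the starts of both genes in capitals, and that of Cs for its motif matches, which are in capitals. Idh3g is at chrX:73786848-73787147 on the minus strand, Dlst at chr12:85110583-85110882 on the plus strand and Cs at chr10:128337477-128337776 on the plus strand, each written 5′ to 3′ on the strand of the gene.
Idh3g: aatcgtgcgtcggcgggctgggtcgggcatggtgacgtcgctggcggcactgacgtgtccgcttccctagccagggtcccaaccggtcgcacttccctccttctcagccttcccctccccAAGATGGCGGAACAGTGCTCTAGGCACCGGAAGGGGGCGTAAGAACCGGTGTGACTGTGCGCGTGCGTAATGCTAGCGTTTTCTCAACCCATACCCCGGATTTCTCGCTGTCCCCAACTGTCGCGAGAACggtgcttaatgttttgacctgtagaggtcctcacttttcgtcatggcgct
Dlst: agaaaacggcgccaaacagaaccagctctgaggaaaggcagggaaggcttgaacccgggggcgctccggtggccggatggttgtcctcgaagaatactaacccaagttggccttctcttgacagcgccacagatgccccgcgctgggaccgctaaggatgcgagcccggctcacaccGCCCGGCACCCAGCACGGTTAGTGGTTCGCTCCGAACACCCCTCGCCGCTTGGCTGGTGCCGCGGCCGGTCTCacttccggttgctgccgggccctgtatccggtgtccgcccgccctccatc
Cs: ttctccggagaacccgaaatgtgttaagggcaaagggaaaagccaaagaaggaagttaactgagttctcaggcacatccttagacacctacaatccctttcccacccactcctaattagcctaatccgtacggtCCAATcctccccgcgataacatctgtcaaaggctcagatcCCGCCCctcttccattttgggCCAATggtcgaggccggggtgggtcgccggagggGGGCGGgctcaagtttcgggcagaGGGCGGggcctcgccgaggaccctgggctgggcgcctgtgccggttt

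In the Cs window the capitals are CCAAT boxes (CCAAT, on either strand) at -116 and -55 and GC boxes (GGGCGG, on either strand) at -76, -21 and 3, in bases from the start. A GC box stood in the windows of 5 of the 8 members (Cs, Ogdh, Dlst, Fh1 and Mdh2) and in 35.7% of all 32851 RefSeq windows, and a CCAAT box in those of 4 members (Cs, Idh3b, Ogdh and Fh1) and in 37.4% of all. The core of the nuclear respiratory factor 1 site (GCATGCG), the core element of estrogen-related receptors (AAGGTCA) and an E-box (CACGTG) were matched for 1 member, Ogdh, which has 6 windows, and in 3.58%, 4.72% and 7.15% of all windows. A member counted when any of its windows matched, while the shares of all windows are per window. The 13 windows of the members held 49.3% to 72.3% G and C, where the median of all windows was 52.7%, and were not matched for it. Such matches describe the letters of the window only.

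Per length, the enzymes of 1 cycle were represented at very unequal levels. Values are normalised read counts, that is gene reads scaled by 1 factor per library, whose derivation is not given. Their library sums ran from 717751 to 1560901, so they are not shares of a library's total. Here they are divided by the exon length in kb and given as the mean over the 61 libraries. That length counts every base of any annotated exon of the gene, so exons not used in these cells would lower its value. Idh3b was highest at 32.0 ± 7.87 (SD, n = 61), followed by Ogdh at 31.9 ± 5.68, Mdh2 at 27.4 ± 6.97, Idh3g at 26.8 ± 7.66 and Cs at 22.04 ± 3.52, and each neighbour in this order overlapped with the next at 1 SD, while Cs did not overlap with Ogdh. Idh3a, the catalytic subunit, stood lower at 8.62 ± 2.51, below the range of Cs. Fh1 at 4.94 ± 1.31, Suclg1 at 3.75 ± 1.23 and Dlst at 3.67 ± 0.649 closed the order and overlapped each other. Within the 2-oxoglutarate dehydrogenase complex the E1 subunit Ogdh and the E3 subunit Dld (27.9 ± 7.16) were far above the E2 subunit Dlst on this scale. Their exon lengths were 5.456 kb for Ogdh, 3.683 kb for Dld and 9.559 kb for Dlst. Among 9 other cycle genes Sdha, the flavoprotein of succinate dehydrogenase, was highest at 56.0 ± 10.9, while its partner Sdhb was at 6.004 ± 1.90. Idh2, the NADP-dependent mitochondrial isocitrate dehydrogenase, was at 2.02 ± 1.16, and Suclg2, the GTP-specific beta subunit of succinyl-CoA ligase, at 1.01 ± 0.687 against 6.80 ± 1.80 for the ATP-specific Sucla2.

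**Figure D1:**
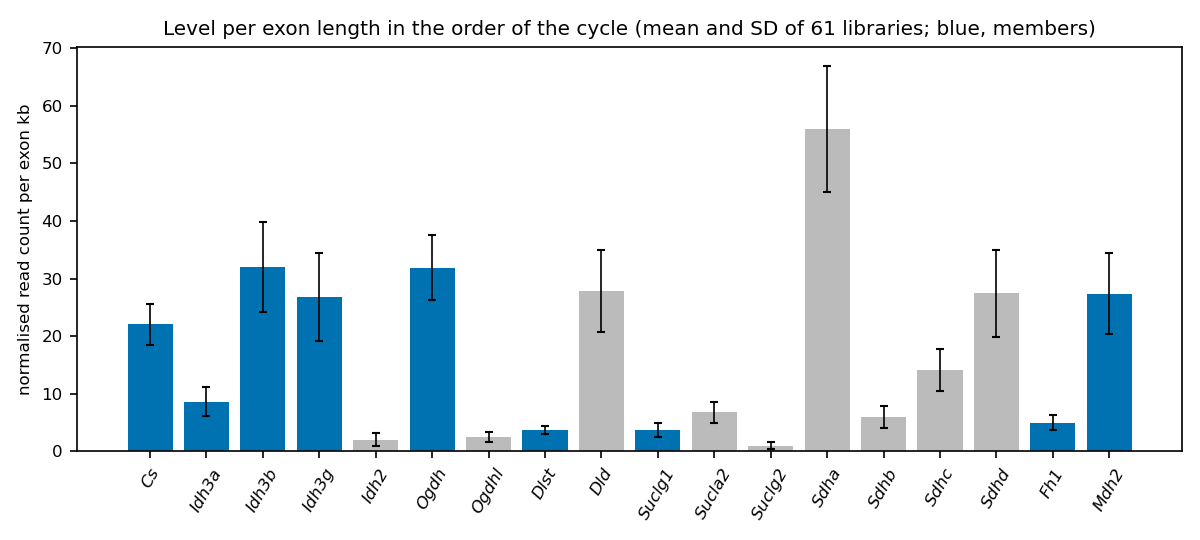
Normalised read count per exon kb (vertical axis) of the 9 members (blue) and 9 other cycle genes (grey) in the order of the cycle; bars are means and lines SD over 61 libraries. Idh3b, Ogdh, Mdh2, Idh3g and Cs lie between 22.04 and 32.0, Idh3a, Fh1, Suclg1 and Dlst below 9.

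The members also differed in how steady they were from library to library. Over all 61 libraries the SD of log2(value + 1) was 0.229 for Cs, 0.249 for Ogdh and 0.251 for Dlst, where the median over 7970 genes with a mean of at least 10 was 0.411. Only 3.65% of those genes had a smaller SD than Cs. They were not matched to Cs, with its mean of 127.4, by level, and low counts add to an SD. Mdh2 (0.347), Idh3b (0.378), Idh3g (0.381) and Fh1 (0.404) lay nearer the median, and Suclg1 (0.454) and Idh3a (0.497) above it.

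Citrate synthase RNA was at much the same level in every group. Cs ran from 95.4 with a median of 124.0 to 143.1 in D2-Gpnmb+ and from 94.7 with a median of 133.0 to 143.8 in DBA/2J at 4 months. At 9 months it ran from 98.2 (median 131.7) to 178.5 in D2-Gpnmb+, from 92.4 (median 134.1) to 166.8 in DBA/2J on water and from 107.3 (median 114.0) to 124.9 with nicotinamide. All 5 groups overlapped, and the libraries with nicotinamide spanned the narrowest range.

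The 3 isocitrate dehydrogenase subunits did not follow a common order. Idh3a ran from 37.3 (median 47.8) to 57.2 in D2-Gpnmb+ and from 36.8 (median 48.9) to 61.6 in DBA/2J at 4 months, from 14.4 (median 39.3) to 54.1 and from 16.5 (median 41.0) to 66.6 at 9 months, and from 42.9 (median 50.7) to 56.9 with nicotinamide. The catalytic subunit thus had a wide lower tail in both strains at 9 months. In D2-Gpnmb+ it was made up of block 1 libraries (14.4 to 22.1). In DBA/2J block 1 ran from 16.5 to 37.6, and block 2 also reached down to 25.6. Idh3b ran from 68.9 (median 104.6) to 137.5 and from 89.0 (median 125.2) to 149.5 at 4 months, from 67.8 (median 91.8) to 141.4 and from 55.5 (median 115.7) to 172.1 at 9 months, in the same order of strains, and from 106.6 (median 126.4) to 135.2 with nicotinamide. Idh3g, the gamma subunit, ran from 38.8 (median 54.8) to 70.0 in D2-Gpnmb+ and from 52.3 (median 58.6) to 68.3 in DBA/2J at 4 months. At 9 months it ran from 52.3 (median 69.4) to 110.0 in D2-Gpnmb+, from 52.9 (median 83.3) to 143.4 in DBA/2J on water and from 56.9 (median 64.3) to 82.9 with nicotinamide. At 9 months on water the highest Idh3g values of both strains lay above those of 4 months, although each group overlapped with its 4-month counterpart. In D2-Gpnmb+ the value of 110.0 was of library 6 alone, and the next highest library had 76.85. The highest value with nicotinamide, 82.9, also lay above both ranges of 4 months.

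**Figure D2:**
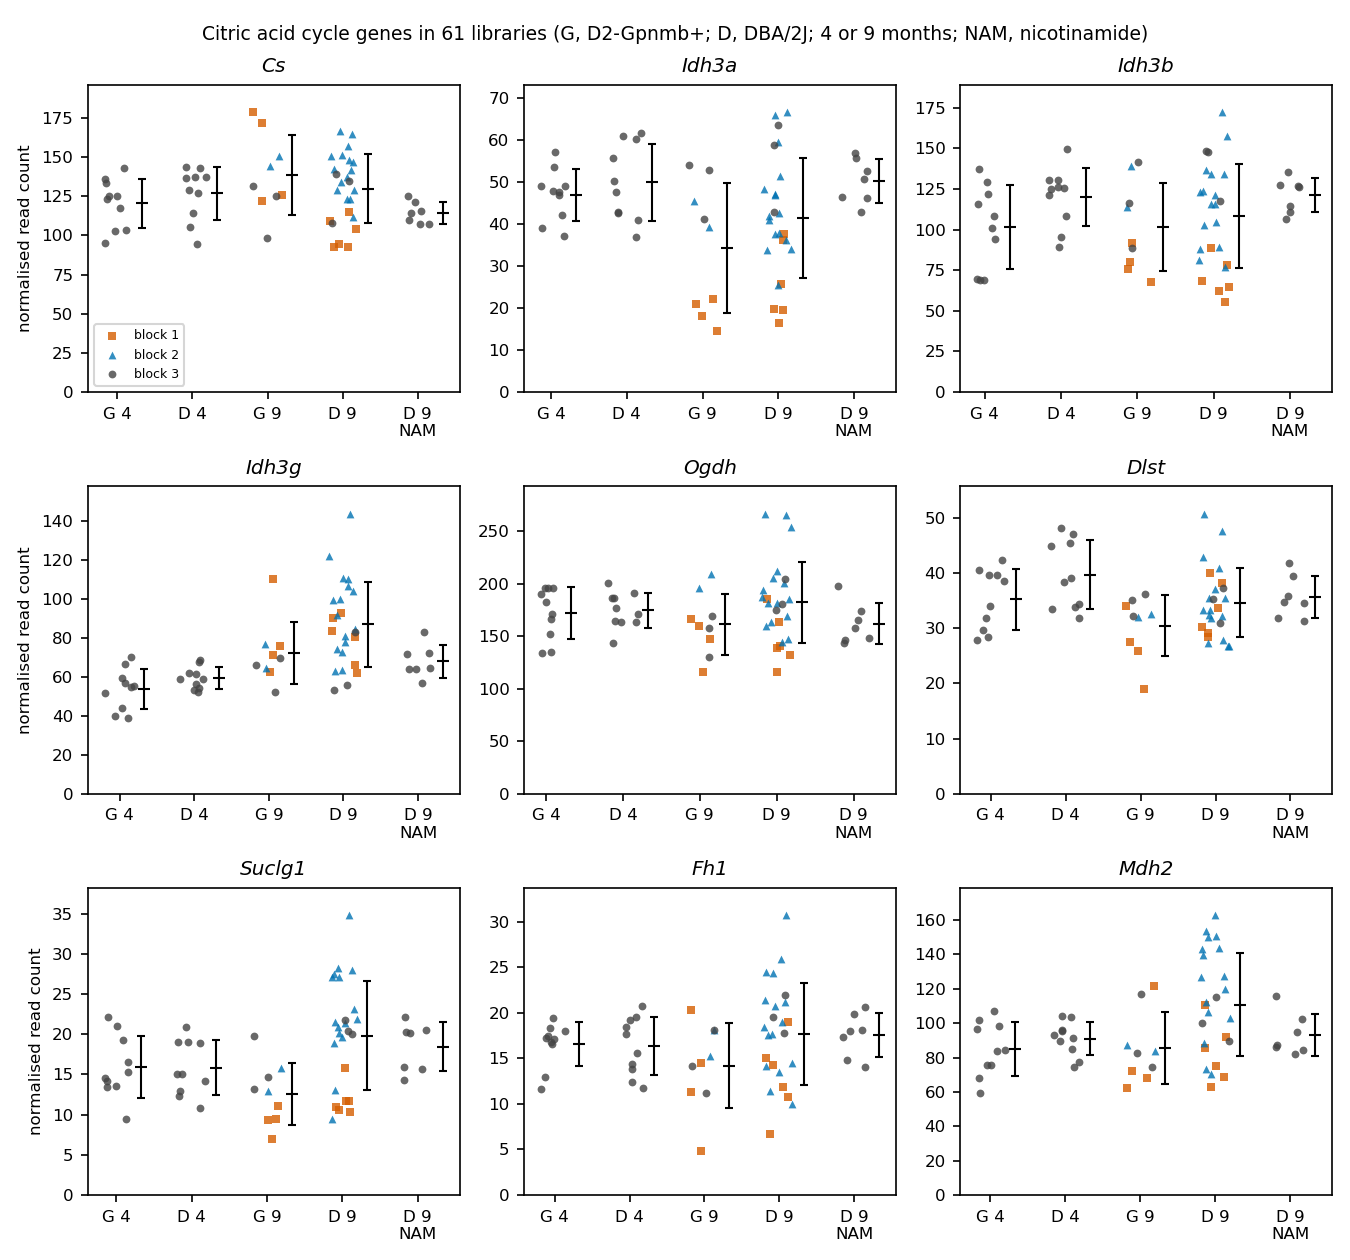
Normalised read count (vertical axes, from 0) of each of the 9 genes in every library, by group (G, D2-Gpnmb+; D, DBA/2J; 4 or 9 months; NAM, nicotinamide) with mean and SD beside the points and the 3 blocks of columns as symbols. The groups overlap for every gene; Idh3a libraries below 25 are all of block 1, and the highest Idh3g value is 143.4 in DBA/2J at 9 months.

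The 2 members of the 2-oxoglutarate dehydrogenase complex were steady. Ogdh had means of 172.0 ± 24.5 (SD, n = 10) in D2-Gpnmb+ and 174.9 ± 16.8 (SD, n = 10) in DBA/2J at 4 months, of 161.5 ± 29.3 (SD, n = 9) and 182.4 ± 38.9 (SD, n = 25) at 9 months, and of 161.9 ± 19.5 (SD, n = 7) with nicotinamide. Dlst had means of 35.3 ± 5.52, 39.7 ± 6.28, 30.5 ± 5.50, 34.7 ± 6.26 and 35.7 ± 3.84 in the same 5 groups. For both, the groups' ranges overlapped.

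The enzymes of the later steps had their widest ranges among the DBA/2J libraries of 9 months on water, the largest group. Suclg1 ran from 9.40 (median 20.4) to 34.8 there and from 6.99 (median 12.99) to 19.8 in D2-Gpnmb+ at 9 months, against medians of 14.9 and 15.1 in the 2 strains at 4 months and 20.2 with nicotinamide. Mdh2 ran from 63.0 (median 110.6) to 162.7 and from 62.3 (median 82.5) to 121.9 at 9 months in DBA/2J and D2-Gpnmb+, against medians of 84.0 in D2-Gpnmb+ and 92.5 in DBA/2J at 4 months and 87.1 with nicotinamide. Fh1 had medians between 14.5 and 17.98 in all 5 groups. At 9 months on water its SD was 32.9% of the mean in D2-Gpnmb+ and 31.6% in DBA/2J. For Suclg1 these shares were 31% and 34.3%, and for Mdh2 24.3% and 27.1%. The highest libraries of these genes belonged to block 2. Suclg1 was the most thinly sequenced member, with 44 reads in its thinnest library.

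At 4 months no member differed between the strains beyond the spread of the libraries. By limma with Benjamini-Hochberg adjustment over all genes tested, 0 of the 9 members had an adjusted p under 0.05, where 0.25% of 12804 genes did. At an unadjusted p under 0.05 there was 1 member, Idh3b, where 13.5% of genes passed. On recovered reads edgeR (0.32% of genes called) and DESeq2 (1.59%) also called 0 of 9. Idh3b was 0.27 ± 0.126 higher in DBA/2J on the log2(value + 1) scale (SE, adjusted p = 0.353). The 95% intervals of 8 of the 9 differences lay within 0.5 on either side of 0, and that of Idh3b reached 0.53. The median difference of the members was 0.08, where that of all genes was 0.01. All these libraries were of block 3.

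At 9 months the strain comparison was wider in error and again called 0 of 9 members by limma, where 0.0218% of 13755 genes were called. Unadjusted p was under 0.05 for 2 members, Suclg1 and Mdh2, and for 13.2% of genes. On recovered reads edgeR called 0 of 9 where it called 0.102% of genes. Suclg1 was 0.59 ± 0.189 higher in DBA/2J (SE, adjusted p = 0.156, 95% interval 0.21 to 0.97) and Mdh2 0.35 higher (adjusted p = 0.29). DESeq2 on recovered reads called 1 member, Suclg1 at 0.66 (adjusted p = 0.0489), where it called 2.25% of genes. Of the 9 members 8 were higher in DBA/2J, with a median difference of 0.25 where that of all genes was -0.03. The strains also differed in block make-up. Blocks 1, 2 and 3 held 6, 16 and 3 DBA/2J and 4, 2 and 3 D2-Gpnmb+ libraries. With block as a covariate 7 of 9 were higher, with a median of 0.17. Suclg1 then differed by 0.42 (adjusted p = 0.297, limma). Within blocks 1, 2 and 3 alone, 6, 6 and 8 of 9 were higher, with medians of 0.05, 0.09 and 0.17.

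Within blocks the strain difference at 9 months was not the same for all members. In block 3, with 3 libraries a strain, Suclg1 differed by 0.38, Mdh2 by 0.17 and Cs by 0.11, and 0 of 9 members were called (lowest adjusted p = 0.814), where 0% of genes were and 823 genes had an unadjusted p under 0.05. In block 1 Cs was called lower in DBA/2J by -0.54 (adjusted p = 0.0275), where 12.3% of genes were called. There Cs was at 115.1, 94.3, 109.1, 92.6, 104.4 and 92.4 in the 6 DBA/2J libraries and at 178.5, 125.5, 122.2 and 171.8 in the 4 of D2-Gpnmb+, without overlap. In block 2, with 16 and 2 libraries, Cs differed by -0.07 and Suclg1 by 0.57, with 0 of 9 members and 0% of genes called, and 788 genes at an unadjusted p under 0.05. Marker lists of 4 kinds of cell also separated the strains in block 1 without overlap. The lists of ganglion cell, bipolar cell, microglia and macrophage, and vascular markers did overlap between the strains there. How often other sets of genes separate these libraries was not tested. The summed level of markers of Müller glia and astrocytes ran from 11320 to 16190 in the 4 D2-Gpnmb+ libraries and from 3904 to 8394 in the 6 DBA/2J libraries, with none of the 12 at 0. That of amacrine and horizontal cell markers ran from 116.4 to 157.3 and from 73.8 to 100.3, with Onecut1 and Lhx1 at 0 in all 4 D2-Gpnmb+ libraries. Rod markers ran the other way, from 971 to 8082 in D2-Gpnmb+ and from 8299 to 11780 in DBA/2J, as did cone markers, from 465.4 to 941.9 and from 1446 to 2144. Their part in the Cs difference was not tested.

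Between 4 and 9 months on water 1 member rose in DBA/2J over all libraries: Idh3g, by 0.50 ± 0.119 on the log2 scale (SE, adjusted p = 0.00256, limma), from 59.3 ± 5.61 (SD, n = 10) to 86.7 ± 21.8 (SD, n = 25). That is 1 of 9 members where 22.4% of 13587 genes were called, 9.25% as higher. The share of members called, 1 in 9, was thus below that of all genes called in either direction and near that called as higher. By edgeR and DESeq2 it was also 1 of 9, where 23.4% and 27.3% of genes were called, and at an unadjusted p under 0.05 it was 1 of 9 where 36% of genes passed. The other 8 members lay between -0.33 for Idh3a (adjusted p = 0.159) and 0.25 for Suclg1 (adjusted p = 0.281). The 95% intervals of the 9 differences reached from -0.67 (Idh3a) to 0.74 (Idh3g).

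The rise of Idh3g was not found within block 3. The 3 DBA/2J libraries of 9 months there had 52.9, 55.8 and 82.7, against 52.3 to 68.3 in the 10 of 4 months, and library 28 alone was high. The difference was 0.08 (adjusted p = 0.88), with 0 of 9 members called where 0.263% of genes were, and -0.12 without library 28 (adjusted p = 0.785). Blocks 1 and 2, which hold no library of 4 months, had means of 78.9 ± 12.5 (SD, n = 6) and 93.9 ± 22.1 (SD, n = 16) at 9 months. With block as a covariate 0 of 9 members were called where 0.0589% of genes were, and age cannot be told apart from block in blocks 1 and 2. Over all libraries Idh3g was called in each of the 35 fits that left out 1 library. Within block 3, 1 of the 9 members had an unadjusted p under 0.05 by limma, as had 1465 of 13670 genes. Suclg1 differed most there, by 0.39 (adjusted p = 0.443).

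Markers of the sorted cells and of other cells moved in the same pooled comparison, in which 9.25% of all genes rose and 13.2% fell. Of the ganglion cell markers 4 of 13 tested fell, with summed levels of 326.3 to 528.8 (median 433.7) at 4 months and 143.8 to 389.6 (median 236.6) at 9 months. Of the cone markers 2 of 10 fell and of the bipolar cell markers 4 of 12. Among the rod markers 6 of 15 rose, with summed levels of 4988 to 11060 at 4 months and 3715 to 80880 at 9 months, 5 of 12 markers of Müller glia and astrocytes rose (1309 to 4516 and 377.5 to 8394) and 8 of the 9 tested microglia markers rose (1.64 to 6.44 and 1.62 to 206.9, with C1qa and Cx3cr1 at 0 in all libraries of 4 months). Of the amacrine and horizontal cell markers 8 of 11 fell (138.5 to 1184 and 49.9 to 529.6). None of the markers of these 7 lists that could be tested in block 3 was called there, and their part in the Idh3g result was not tested.

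Ssr4, which encodes a subunit of the translocon-associated protein complex of the endoplasmic reticulum and starts 131 bases from Idh3g, rose in the same pooled comparison. It ran from 2.20 (median 4.18) to 7.15 in DBA/2J at 4 months and from 3.64 (median 7.42) to 14.3 at 9 months, and differed by 0.71 ± 0.182 (SE, adjusted p = 0.00509, limma). In block 3 it differed by 0.29 (adjusted p = 0.745), so that both genes of the pair were called over all libraries and neither within the block. Prox2, the neighbour of Dlst, differed by 0.28 (adjusted p = 0.386), and Dlst by -0.20 (adjusted p = 0.152).

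In D2-Gpnmb+ 0 of 9 members were called between 4 and 9 months by limma, where 0.0232% of 12910 genes were, and 2 had an unadjusted p under 0.05 where 30.3% of genes did. Those were Idh3a, lower by -0.57 ± 0.213 (SE, adjusted p = 0.0968), and Idh3g, higher by 0.42 ± 0.136 (SE, adjusted p = 0.0809). On recovered reads edgeR and DESeq2 each called 1 member, Idh3g, at 0.43 (adjusted p = 0.043) and 0.42 (adjusted p = 0.0303), where they called 11.8% and 16.4% of genes. The call by limma also depended on single libraries: without D2-Gpnmb+ library 13 of 9 months Idh3g was called at 0.47 (adjusted p = 0.0305), where 15.9% of genes were called, and without library 15 Idh3a was called at -0.67 (adjusted p = 0.0483), where 9.27% were. Without library 9 or 14 of that group, 7.75% and 8.18% of genes were called and 0 of 9 members. Within block 3 Idh3a differed by 0.07 and Idh3g by 0.23, and 0 of 9 members and 0% of genes were called (lowest adjusted p of a member = 0.999), with 640 genes at an unadjusted p under 0.05.

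The change with age was not shown to differ between the strains for any member. In the interaction of strain and age limma called 0 of 9, where 0.375% of 14150 genes were called, and 1 member, Suclg1, had an unadjusted p under 0.05 where 12.9% of genes did. On recovered reads edgeR (0.36% of genes called) and DESeq2 (2.27%) also called 0 of 9. Suclg1 had the largest interaction of the 9 at 0.59 ± 0.257 (SE, adjusted p = 0.298, 95% interval 0.08 to 1.11). It was 0.38 in block 3, where 0 of 9 members and 0.0774% of genes were called. For Idh3g the interaction was 0.09 (adjusted p = 0.884, 95% interval -0.28 to 0.45).

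Nicotinamide was the treatment of the study, and no member differed with it beyond the spread of the libraries. At 9 months limma called 0 of 9 members against water, where 15.1% of 13925 genes were called, and 1 member, Idh3g, had an unadjusted p under 0.05 where 31.4% of genes did. On recovered reads edgeR (16.3% of genes called) and DESeq2 (21.1%) also called 0 of 9. Idh3g was at 67.9 ± 8.398 (SD, n = 7) with nicotinamide and 86.7 ± 21.8 (SD, n = 25) on water, a difference of -0.31 ± 0.142 (SE, adjusted p = 0.124). Idh3a was 0.35 higher (adjusted p = 0.225). These 2 pooled differences took the opposite sign in block 3, which holds all libraries with nicotinamide: Idh3g differed by 0.11 and Idh3a by -0.12 there.

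Within block 3, with 7 libraries against 3 on water, the 9 differences lay between -0.21 (Ogdh) and 0.11 (Idh3g), and all 9 of the 95% intervals lay within 0.5 of 0, from -0.50 (Suclg1) to 0.42 (Idh3g). The lowest adjusted p was 0.357, and 0.00749% of genes were called. Against the 10 DBA/2J libraries of 4 months, all of block 3, limma called 0 of 9 members where 1.54% of 13024 genes were called, and 1 member (Idh3g) had an unadjusted p under 0.05 where 14.9% of genes did. With edgeR (1.8% of genes) and DESeq2 (3.83%) 0 of 9 were called as well. The differences lay between -0.14 (Dlst) and 0.22 (Suclg1, adjusted p = 0.467). All 9 intervals again lay within 0.5 of 0, from -0.34 to 0.49.

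**Figure D3:**
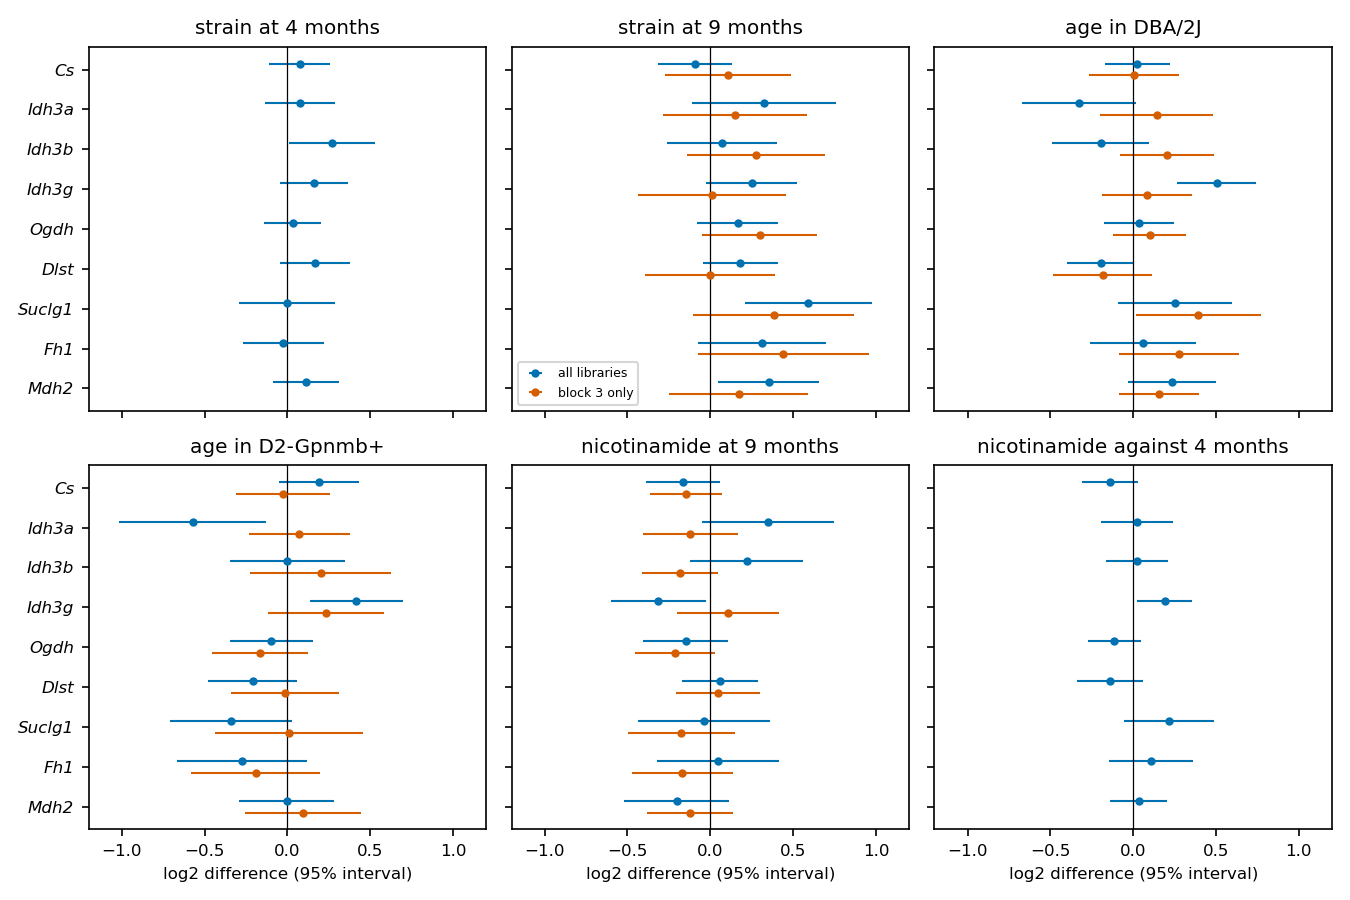
Log2 difference (horizontal axes, dots) with 95% interval (lines) of each gene in 6 comparisons, over all libraries (blue) and within block 3 (orange, where other blocks take part in the comparison); strain is DBA/2J minus D2-Gpnmb+, age is 9 minus 4 months and nicotinamide is treated minus the group named. Idh3g lies at 0.50 for age in DBA/2J over all libraries and at 0.08 in block 3.

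The balance between the subunits of isocitrate dehydrogenase followed block more than group, a comparison chosen after the values were seen and given as a description. On a log2 scale per exon kb, Idh3g exceeded Idh3a by a mean of 2.73 ± 0.606 (SD, n = 10) in block 1, 1.95 ± 0.396 (SD, n = 18) in block 2 and 1.18 ± 0.218 (SD, n = 33) in block 3. The ranges of blocks 1 and 3 did not overlap, at 1.71 to 3.84 and 0.79 to 1.62. Within DBA/2J at 9 months on water the 3 means were 2.57, 1.98 and 1.11, and within D2-Gpnmb+ they were 2.97, 1.64 and 1.25. In block 3 alone the 5 groups had means between 1.09 and 1.34. Idh3a was lowest in block 1 and Idh3g lowest in block 3. Idh3a was at 23.1 ± 7.92, 44.5 ± 10.98 and 49.5 ± 7.44 in blocks 1, 2 and 3, and Idh3g at 79.3 ± 15.3, 91.3 ± 22.2 and 60.1 ± 10.2. The ratio of Idh3b to Idh3a moved less, with means of 2.29, 1.98 and 1.78.

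**Figure D4:**
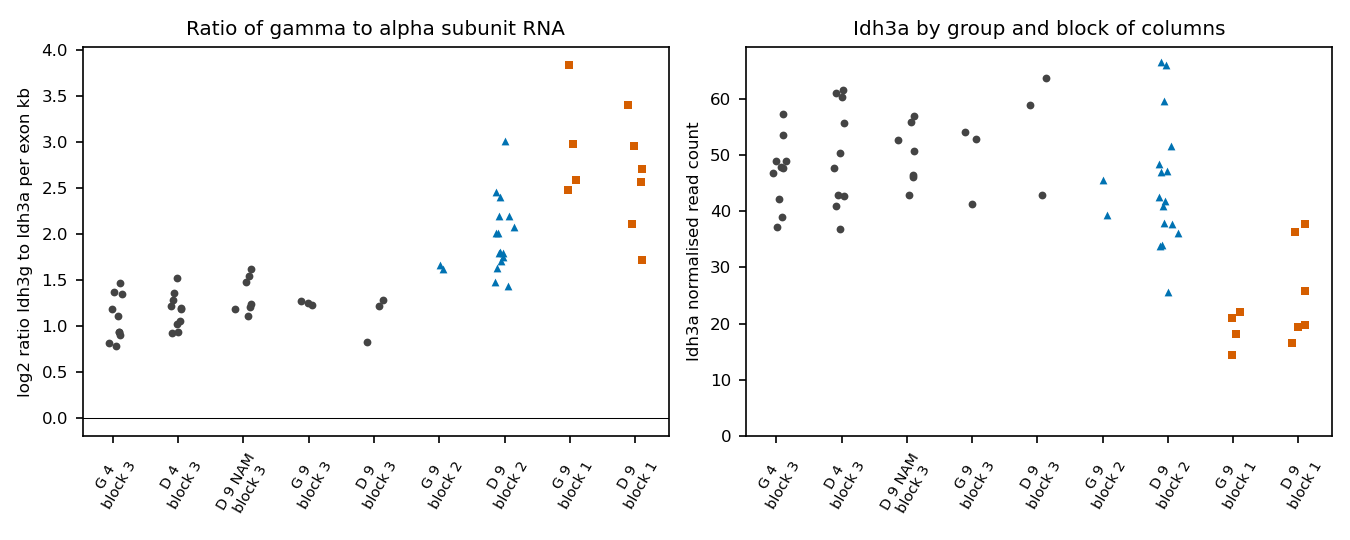
Left, log2 ratio of Idh3g to Idh3a per exon kb; right, Idh3a normalised read count; each point is 1 library, grouped by strain (G, D2-Gpnmb+; D, DBA/2J), age in months, treatment (NAM, nicotinamide) and block. Block 3 groups of either age lie between 0.79 and 1.62 in ratio, and all block 1 libraries at 1.71 or above.

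Pairs of members were compared among the 16 DBA/2J libraries of 9 months on water in block 2, in the deposited scale. These were the largest set of 1 group and block. Of 36 pairs of members 30 had a positive Pearson correlation, with a median of 0.263 and a range from -0.182 (Ogdh with Suclg1) to 0.812. Pairs of other genes were not computed, so these counts are not shown to be particular to the members. After adjustment over the 36 pairs, 5 had a permutation p under 0.05. Suclg1 with Mdh2 had r = 0.812 (adjusted permutation p = 0.00432) but Spearman's rho = 0.565 (adjusted permutation p = 0.2), and r = 0.508 without the 2 farthest libraries. Idh3a with Ogdh had r = 0.81 (adjusted permutation p = 0.00432), rho = 0.75 (adjusted permutation p = 0.0461) and r = 0.705 without 2 libraries. The other 3 pairs were Idh3a with Idh3b (r = 0.689, rho = 0.568), Ogdh with Dlst (r = 0.662, rho = 0.553) and Idh3a with Dlst (r = 0.655, rho = 0.594), with adjusted permutation p of 0.0383, 0.0434 and 0.0434 for r and 0.2 for each rho. Without the 2 farthest libraries their r was 0.454, 0.483 and 0.73.

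In these 16 libraries the mean log2 level of the 9 members also rose with the number of recovered reads. Pearson's r was 0.827 (permutation p = 7e-05, 0.0007 adjusted over 10 relations), Spearman's rho 0.824 (permutation p = 0.00022, adjusted 0.0022), and r was 0.781 without the 2 libraries farthest from the median depth. Scaled to the sum of each library instead, the relation was not found (r = 0.286, permutation p = 0.281). Over all 7970 genes the median r with reads was 0.088, and 8.02% of genes exceeded 0.5, as did Cs (0.704), Ogdh (0.607), Dlst (0.73) and Mdh2 (0.567) among the members. In the 6 DBA/2J libraries of block 1 the order was the reverse, with r = 0.751 in the deposited scale (exact permutation p = 0.0958) and 0.979 scaled to library sums (exact permutation p = 0.00417, adjusted 0.0208). In the 10 libraries of each strain at 4 months and the 7 with nicotinamide no adjusted p was under 0.05. Depth moved with the members' level, and its part in their correlations with each other was not tested. For none of 8 retinal marker lists did the correlation with the members' mean in the 16 libraries reach an adjusted p under 0.05 (lowest adjusted permutation p = 0.385, over 9 relations; r = 0.431 and rho = 0.253 for bipolar cell markers).

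**Figure D5:**
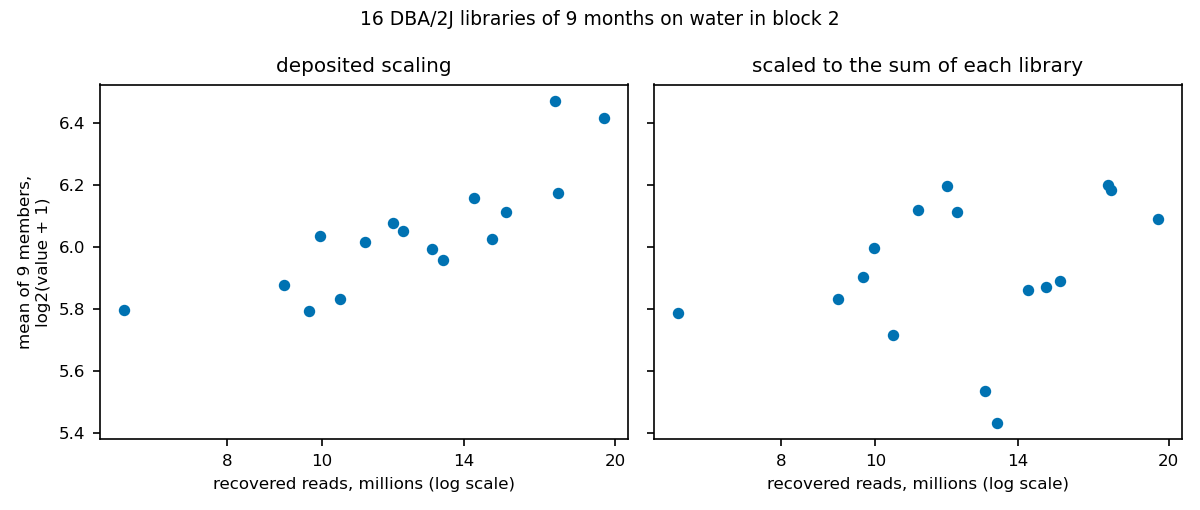
Mean log2(value + 1) of the 9 genes (vertical axis) against recovered reads (horizontal axis, log scale, in units of 1000000) for the 16 DBA/2J libraries of 9 months on water in block 2, one point a library; left as deposited (r = 0.827), right scaled to the sum of each library (r = 0.286).

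Of 9 other genes of the cycle (Idh2, Ogdhl, Dld, Sucla2, Suclg2 and Sdha to Sdhd), 1 rose and 1 fell with age in DBA/2J over all libraries, where 22.4% of all genes were called: Sdhb, the iron-sulfur subunit of succinate dehydrogenase, by 0.39 (adjusted p = 0.0438) and Dld, the E3 subunit shared by the 2-oxoacid dehydrogenases, by -0.42 (adjusted p = 0.0391). Both lost the call in block 3, at 0.14 and 0.12. In each of the other 6 comparisons 0 of 9 were called by limma.

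Genes that feed the cycle are given beside the shares of all genes, of which 9.25% rose and 13.2% fell with age in DBA/2J, and 9.78% were higher and 5.34% lower with nicotinamide at 9 months. Of 13 tested genes of pyruvate entry 2 rose and 2 fell with age in DBA/2J, among them Dlat, the E2 subunit of pyruvate dehydrogenase, which fell from 78.6 ± 5.33 (SD, n = 10) to 48.4 ± 17.3 (SD, n = 25), by -0.76 (adjusted p = 0.000491). Pdk1, a kinase that inhibits the same complex, fell by -0.64 (adjusted p = 0.0177), while Mpc2, a subunit of the mitochondrial pyruvate carrier, rose by 0.46 (adjusted p = 0.0318) and pyruvate carboxylase, Pcx, by 0.69 (adjusted p = 0.0481). None of the 4 was called in block 3, where Dlat differed by 0.05. With nicotinamide at 9 months 3 of the 13 were higher, Dlat (0.80), Pdk1 (0.90) and the phosphatase Pdp2 (0.70), and in block 3 they differed by -0.01, -0.18 and 0.47 with no call. Against DBA/2J at 4 months, where 1.54% of all genes were called, 1 of the 13, Pdp2, was higher with nicotinamide, at 22.7 ± 3.31 (SD, n = 7) and 16.7 ± 2.74 (SD, n = 10), by 0.43 (adjusted p = 0.0498).

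At 4 months, within block 3, the strains differed in 1 of 13 tested genes of pyruvate entry and 1 of 7 of glutamate and ketone entry, where 0.25% of all genes were called. Mpc1, the partner of Mpc2, was at 7.23 ± 1.67 (SD, n = 10) in DBA/2J and 2.47 ± 0.848 (SD, n = 10) in D2-Gpnmb+, a difference of 1.26 (adjusted p = 8.24e-05). Aldh5a1, which turns succinic semialdehyde into succinate, was at 63.4 ± 7.18 and 42.2 ± 6.73, a difference of 0.58 (adjusted p = 0.00308). Aldh5a1 was also the list gene called in the interaction of strain and age, at -1.02 (adjusted p = 0.00474), and at -0.55 in block 3 without a call. Of the 7 genes of that list 2 fell with age in DBA/2J (Aldh5a1 by -0.62 and Glud1 by -0.35), where 13.2% of all genes fell, again without a call in block 3. With nicotinamide at 9 months Aldh5a1 was higher by 0.64 (adjusted p = 0.00433, limma), where 9.78% of all genes were higher. In block 3 that difference was 0.15 (adjusted p = 0.598).

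Of 13 tested genes of the shuttles and cytosolic counterparts, 1 rose (Aco1, by 0.43) and 1 fell (Got1, by -0.55) with age in DBA/2J, where 9.25% of all genes rose and 13.2% fell. With nicotinamide at 9 months 1 was higher (Acly, 0.44) and 1 lower (Aco1, -0.45), where 9.78% and 5.34% of all genes were, none of them called in block 3. Among 41 nuclear genes of the respiratory chain 14 rose and 0 fell with age in DBA/2J (all genes 9.25% and 13.2%), with a median difference of 0.36 over all libraries and 0.11 in block 3, where none was called, and 6 were lower with nicotinamide at 9 months (all genes 5.34%). Of 16 glycolytic genes 1 rose with age in DBA/2J (all genes 9.25%), and of 6 genes for lipoylation and succinate dehydrogenase assembly none was called in any of the 7 comparisons.

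Some genes outside the cycle tracked the members closely over the 61 libraries after centring on group and block. Over 5615 genes with a mean of at least 20, those most like the mean of the 9 members were Ttll1 (r = 0.807), Tubb5 (0.794), Eef2 (0.788), Ap3m2 (0.784) and Hspa8 (0.76). Those most like Cs were Ctnnb1 (0.68), Atp5b (0.677), Tmbim6 (0.671), Fuca1 (0.654) and Ubxn4 (0.651). Libraries share their scaling and depth, so these values describe likeness only.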

How the data were processed

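Sorted retinal cells of 5 groups were profiled in 61 libraries. Per the submitters' processing notes, reads were processed with TopHat2 2.0.7, Bowtie2 2.0.6 and HTSeq against mm10. The deposited table holds a normalised signal per gene: the authors scaled the counts of each library by 1 factor, whose derivation is not given in the sources used here. Column sums ran from 717751 to 1560901. Of 15171 rows, 22 with names turned into dates were left out. Within a tolerance of 0.05 reads, 100% of the positive values gave whole reads after division by the smallest step of their column. These recovered reads went into the alternatives edgeR 4.0.16 and DESeq2 1.42.0.

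Groups were compared on log2(value + 1) with limma 3.58.1 (R 4.3.3; empirical Bayes, trended and robust), using only the groups compared. Genes had to reach 1 in a number of libraries equal to the size of the smaller group. P-values had Benjamini-Hochberg adjustment over all genes tested and a threshold of 0.05; fold differences of low genes are understated on this scale. The code was tested on simulated data. Correlations used 100000 permutations, or all of them for fewer than 8 libraries. Alternatives were a pseudocount of 0.5, no filter, scaling to library sums, block as a covariate, block 3 only and leaving out each library; block 1 only and block 2 only were added after the data were seen.

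Columns matched groups but not single samples, and library numbers are those of the columns. Nothing in the labels ties libraries to separate mice, and the p-values reflect library-to-library spread, which may be technical. Blocks were defined from the order of the columns. Their sizes in each group equal those of the number series in the sample titles, whose meaning the labels do not state either. Exon lengths and positions are from GENCODE M21 (GRCm38, the same assembly as mm10), promoters from RefSeq (GRCm38.p6). All 9 members were named, up to 4 called genes per pathway list and comparison, and the 5 genes most like the members' mean and Cs. Members, lists and this rule were chosen with earlier results of these data known. No 2 libraries agreed within sampling noise (lowest chi-squared per gene 6.54). Some genes of these pathways are not reported here.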

Additional observations from a re-analysis of the deposited data

Results flagged for a closer look

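In 1 of 36 sets of 4 to 10 libraries tested for a library far from the others, the highest or lowest value stood apart by more than the gap that chance gives in about 1 in 20 such sets. Idh3g in D2-Gpnmb+ library 6 of 9 months, of block 1, was at 110.0, where the next highest library of that group had 76.85 and the lowest 52.27, a gap of 0.575 of the whole range.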

How the results depend on the processing

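No paired analysis was possible because the sample numbers in the labels are unique to each sample and the columns carry no number shared between groups. The number of members called stayed at 0 under every alternative at 4 months, in the interaction and in both nicotinamide comparisons. For strain at 9 months it was 0 over all libraries, 1 by DESeq2 on recovered reads and 1 in block 1 only. For age in DBA/2J it was 1 over all libraries and 0 with block as a covariate and in block 3 only. It was 1 in each fit that left out 1 of all libraries and 0 in each that left out 1 within block 3. For age in D2-Gpnmb+ it was 0 by limma and 1 by edgeR and by DESeq2, with a range of 0 to 1 without 1 library (1 without library 13 or 15 of 9 months). Idh3g with age in DBA/2J lay between 0.47 and 0.53 without any 1 of 35 libraries, and in block 3 only between -0.12 and 0.20, reversed without DBA/2J library 28 (-0.12). The cause of these differences was not tested. Of all member differences, called or not, 16 of 45 changed sign in block 3 only, 12 of 45 with block as a covariate and 14 of 63 when scaled to library sums; 0 of 63 did with a pseudocount of 0.5 or without the filter. Scaling to library sums moved the median of all genes to 0.24 for strain at 4 months, -0.13 for strain at 9 months, 0.31 for age in D2-Gpnmb+ and -0.36 in the interaction, with members' medians of 0.33, 0.14, 0.26 and -0.24.

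In every comparison the count of all genes called moved by more than 1.5 times in some of these fits, though not in all. Strain at 4 months had 32 calls (13 higher), 20 scaled to library sums (19 higher) and 204 by DESeq2. Strain at 9 months had 3, with 0 scaled to library sums, 14 by edgeR, 255 by DESeq2, 0 in block 3, 1648 in block 1 and 0 in block 2. Age in DBA/2J had 3044 (1257 higher), 3174 by edgeR (1721 higher), 8 with block as a covariate and 36 in block 3. Age in D2-Gpnmb+ had 3, with 1526 by edgeR, 2114 by DESeq2 and 0 scaled to library sums, with block as a covariate and in block 3. The interaction had 53 (18 higher), 215 scaled to library sums (10 higher), 284 by DESeq2, 12 with block as a covariate and 11 in block 3. Nicotinamide at 9 months had 2105 (1362 higher), 2275 by edgeR (1029 higher), 0 with block as a covariate and 1 in block 3, and nicotinamide against 4 months had 200 and, by DESeq2, 499. Centred on group alone, 2 of the 5 genes most like the members' mean and 1 of the 5 most like Cs remained among the first 5. Without 1 library these counts ran from 6 (DBA/2J library 4) to 92 (DBA/2J library 10) for strain at 4 months, from 0 to 55 (D2-Gpnmb+ library 9) for strain at 9 months and from 2337 to 3450 for age in DBA/2J. For age in D2-Gpnmb+ they were 2069, 1208, 1065 and 1010 without libraries 13, 15, 14 and 9 of 9 months, and 0 to 4 without any other. They ran from 9 (DBA/2J library 1 of 4 months) to 239 (D2-Gpnmb+ library 9 of 9 months) in the interaction and from 1294 to 2540 for nicotinamide at 9 months (1294, 1400 and 1304 without treated libraries 3, 4 and 7). Against 4 months they ran from 16 to 413 (treated libraries 5 and 8). Counting limits were smallest for Cs and Ogdh and widest for Suclg1, with 44 reads in 1 library.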
